A study of Arabidopsis thaliana with 4 samples.

Results

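Transcribed pseudogenes are gene copies annotated as pseudogenes for which RNA was nevertheless measured. The members were chosen by FPKM, the fragments per kilobase of annotation scaled to the mapped reads of a library: a row of the mRNA-Seq table was taken if its annotation type is pseudogene and any of the 4 libraries gave it a value above 0. The rule was met by 182 of the 924 pseudogenes, in a table of 33476 annotations of all types, and 742 pseudogenes were listed at 0 in all 4 libraries. Since the rule itself used FPKM, being above 0 is a description and not a result. Poly-A RNA of Arabidopsis thaliana was sequenced from dividing tissue, the meristem with the younger leaves, and from non-dividing tissue, which was made up of the 4 to 6 oldest leaves. There were 2 libraries of each tissue. All 4 came from Columbia plants that carried a GFP-tagged histone H3 under its endogenous promoter: replicate 1 of each tissue was from the HTR5-GFP line (H3.3) and replicate 2 from the HTR13-GFP line (H3.1), so that no library is from untransformed plants and the replicate and the line cannot be told apart. The plants were 4 weeks old. They had been stratified for 5 days at 4°C and then kept in short days (8 h light, 16 h dark) at 20 to 22°C.

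A pseudogene is a copy of a gene that has lost the ability to make the full product, through a frameshift, a premature stop, a lost promoter or the loss of part of the copy. Pseudogenes come from tandem or dispersed duplication, from reverse transcription of an mRNA and, in plants, from insertion of organelle DNA into the nucleus. Some are still transcribed, and a transcript that overlaps or resembles a working gene can give rise to small RNA. In Arabidopsis large, fast-changing families such as F-box, receptor-like kinase and disease resistance genes have left many pseudogenes.

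The 4 libraries had summed FPKM between 700884 and 715002. Of 8 genes of the shoot meristem and of dividing cells, 6 were higher in dividing tissue and WUS and CLV3 were listed at 0 in all 4 libraries. Their summed FPKM was 100.5 and 103 in dividing tissue, against 2.87 and 3.53 in non-dividing tissue. Of the 3 mature leaf genes, LHCB1.3 and SEN1 were lower in dividing tissue and RBCS1A, with 8473 and 8454 FPKM in dividing tissue, against 7497 and 8767 FPKM in non-dividing tissue, was not called. They summed to 26043 and 25185 FPKM in dividing tissue, against 35443 and 39675 FPKM in non-dividing tissue. PYK10, the root marker, was at 445 and 431 FPKM in dividing tissue, against 192 and 188 FPKM in non-dividing tissue. The 3 flower genes summed to at most 0.591 FPKM in any library, and 2S1 of seeds was listed at 0. The part of other cell types in the differences was not tested. The comparison of tissues was fitted by limma to log2(FPKM + 1). Annotations whose mean over the libraries was 1 FPKM or more were tested, with an adjusted p under 0.05 called. Fold changes on this scale are smaller than the FPKM ratio where FPKM is low. An annotation listed at 0 in both libraries of a tissue enters the test through the other tissue alone. Its 2 values of 0 show no spread, and a 0 can be a failed estimate, so its p-value is no separate support. The read number behind a value was not recovered from FPKM, the 2 libraries of a tissue differ in line, and p-values measure only the spread between these samples. Over the 17967 annotations tested, the median log2 fold change of dividing over non-dividing tissue was 0.38. When libraries were divided by the median of their ratios to the mean of all 4, that median was 0.02, and values after this step are called rescaled. In whole tissues, fewer cells of a type and less RNA per cell cannot be told apart.

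Each library gave between 135 and 161 of the 182 pseudogenes a value above 0. In dividing tissue 161 and 155 were above 0, against 144 and 135 in non-dividing tissue. They were mostly weakly represented: 82 had a mean FPKM under 1 over the 4 libraries, 82 lay between 1 and 10, 15 between 10 and 100, and 3 at 100 or more. The lowest members of the set were AT1G24792, at 0.0450 FPKM or less in every library, and AT5G59630, at 0.0582 FPKM in replicate 2 of dividing tissue and at 0 in the other libraries. Both lie just inside the rule, and those outside it are listed at 0. Together the 182 summed to 966 and 958 FPKM in dividing tissue, against 977 and 1039 FPKM in non-dividing tissue, which was between 0.135 and 0.148% of all FPKM in each library. The ratio of the tissue means was 0.95, or 0.72 after rescaling. The 3 highest pseudogenes held 38.2 and 40.4% of the sum in dividing tissue, against 52.3 and 53.3% in non-dividing tissue. Without these 3 the sums were 597 and 571 FPKM in dividing tissue, against 466 and 485 FPKM in non-dividing tissue, and the ratio was 1.23. On the deposited scale the total was therefore set by a few loci, and its direction changed when they were left out. The ratio without these loci was not computed after rescaling.

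Of the 182 pseudogenes, 100 reached a mean of 1 FPKM and entered the test, and 82 did not. In the limma fit 67 of the 100 were called in either direction, beside 69.9% of all annotations tested. Of the 100, 43 were higher in dividing tissue, beside 51.7% of all annotations tested, and 24 were lower, beside 18.2% of all. The median log2 fold change of the 100 was 0.33, against 0.38 over all annotations. After rescaling, 25 were higher, beside 31.0% of all annotations, and 32 were lower, beside 30.7% of all, with a median of -0.01, and 61.7% of all annotations were called in either direction. With the line as a block 47 were higher, beside 54.1% of all annotations, and 28 were lower, beside 20.2% of all, or 74.3% of all in either direction. All 25 called higher after rescaling had also been higher before rescaling, and the 24 lower ones remained lower. The share called higher was below that of the whole table and the share called lower above it as deposited, and after rescaling the shares called lower were close. Without replicate 1 of dividing tissue 26 were called higher, and 14 and 13 were called lower without replicate 1 and without replicate 2 of dividing tissue. In fits that leave out a library, the tissue with 1 library is assumed to vary like the other, so a lost call can come from the smaller design alone, with the fold change as large. A group of 2 against 2 libraries cannot give a two-sided p below 0.33 in an exact permutation test, so single pseudogenes were not tested in that way.

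**Figure D1:**
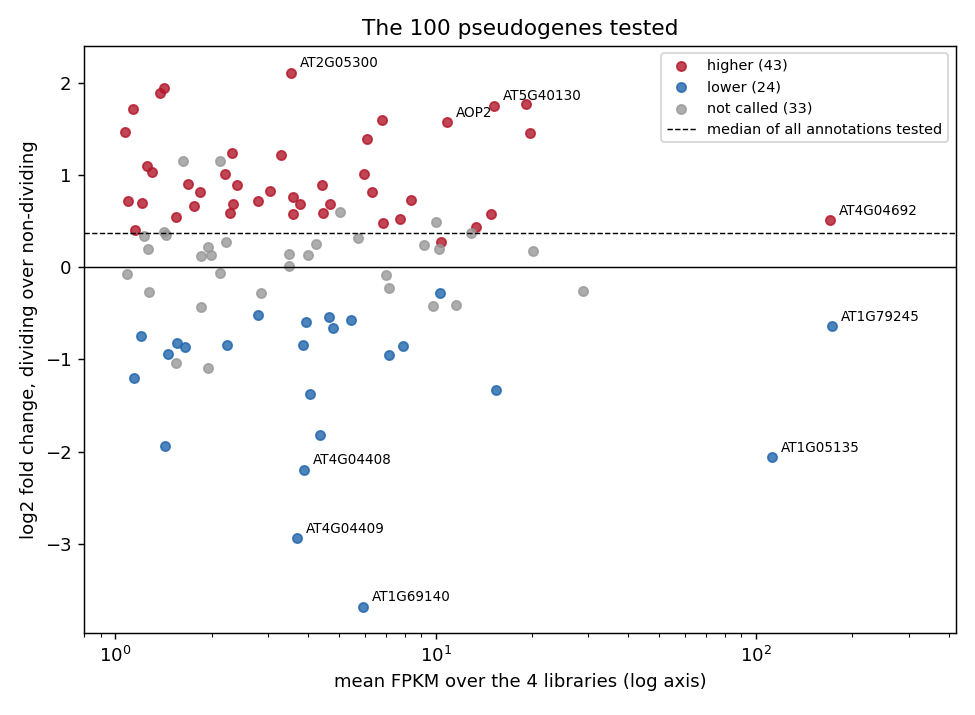
Mean FPKM over the 4 libraries (x axis, log) against the log2 fold change of dividing over non-dividing tissue (y axis) for the 100 pseudogenes tested with limma. Each point is 1 pseudogene, coloured by its call, and the dashed line is the median of all 17967 annotations (0.38). The 3 points at the right are the pseudogenes with a mean above 100, of which AT4G04692 was higher and the other 2 lower.

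The 3 most abundant pseudogenes were AT1G79245, AT4G04692 and AT1G05135, with no other above a mean of 28.8 FPKM. AT1G79245, annotated as a relic of a winged helix DNA-binding repressor gene, had 117 and 153 FPKM in dividing tissue, against 189 and 232 FPKM in non-dividing tissue. It was lower in dividing tissue (log2 fold change -0.64 ± 0.18 SE, limma adjusted p = 0.0253), and the groups did not overlap. Without either dividing library, or without replicate 2 of non-dividing tissue, the adjusted p was between 0.0564 and 0.148. AT4G04692, a copy of an unknown expressed gene, had 210.3 and 191 FPKM in dividing tissue, against 135 and 146 FPKM in non-dividing tissue, and was higher (0.51 ± 0.10, limma adjusted p = 0.00884; 0.0651 without replicate 1 of dividing tissue). After rescaling its log2 fold change was 0.10 (limma adjusted p = 0.417), so that this call rested on the deposited scale.

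AT1G05135 was the abundant pseudogene with the clearest difference. It had 41.9 and 43.3 FPKM in dividing tissue, against 187 and 175 FPKM in non-dividing tissue (log2 fold change -2.06 ± 0.09, limma adjusted p = 0.000211). Its nearest protein-coding relative was AT3G23450, a gene of unknown function, with 69.5% identity over 325 aligned bases. AT3G23450 had 35.6 and 34.8 FPKM in dividing tissue, against 336 and 169 FPKM in non-dividing tissue (log2 fold change -2.72 ± 0.33, limma adjusted p = 0.00173). Both loci were therefore several-fold lower in dividing tissue. In AT1G05135, 95.4% of the 36-base stretches occurred once in the genome.

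**Figure D2:**
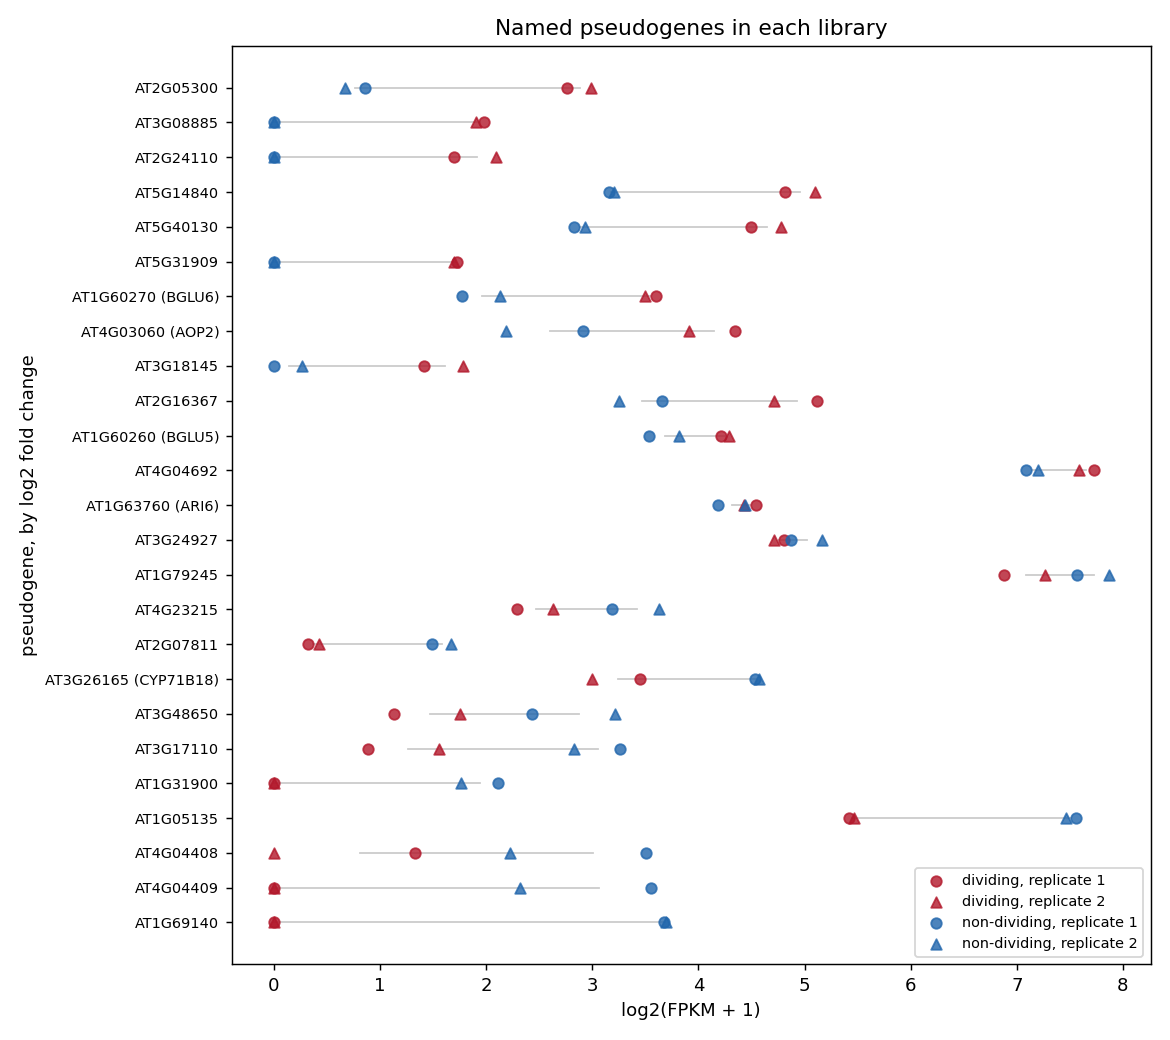
log2(FPKM + 1) (x axis) of the 25 named pseudogenes that were tested (y axis, ordered by log2 fold change). Red symbols are dividing and blue symbols non-dividing libraries, circles replicate 1 and triangles replicate 2, and grey lines join the tissue means. Pseudogenes at the top are higher in dividing tissue, those at the bottom lower, and symbols at 0 are libraries in which a pseudogene was listed at 0.

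The largest difference upward on the log2(FPKM + 1) scale was that of AT2G05300, an F-box pseudogene on chromosome 2 (1930929 to 1932999, TAIR9). F-box proteins are the substrate-binding subunits of SCF ubiquitin ligases. AT2G05300 had 5.80 and 6.93 FPKM in dividing tissue, against 0.814 and 0.594 FPKM in non-dividing tissue (log2 fold change 2.11 ± 0.14, limma adjusted p = 0.000404). With a pseudocount of 0.1 AT3G08885, AT2G24110, AT5G31909 and AT3G18145, which are at or near 0 in non-dividing tissue, came before it. Its nearest relative AT3G23955, with 88.5% identity, was listed at 0 in all 4 libraries, and its neighbour AT2G05310 had 185 and 167 FPKM in dividing tissue, against 193 and 184 FPKM in non-dividing tissue, with no call. Of the 13 pseudogenes whose annotation names an F-box, 11 had a higher mean in dividing tissue, 5 were tested, 4 of these were called higher and 1 lower, beside 51.7 and 18.2% of all annotations. After rescaling 3 were higher and 1 lower, beside 31.0 and 30.7% of all, and AT2G13130 was not called (limma adjusted p = 0.159). Over all 182 pseudogenes, 116 had a higher mean in dividing tissue. The other 3 F-box pseudogenes called higher, which were named after their values were seen, were AT3G58975 (9.15 and 9.40 FPKM in dividing, against 2.55 and 3.33 FPKM in non-dividing tissue), AT2G14090 and AT2G13130. AT5G42730, a copy related to the flowering gene FKF1, was the one called lower, with 8.93 and 9.54 FPKM in dividing tissue, against 11.3 and 11.6 FPKM in non-dividing tissue. Only 20.2% of its stretches occurred once in the genome.

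The pseudogene of ribosomal protein L5, AT5G40130 on chromosome 5 (16053697 to 16054056, TAIR9), moved together with the intact gene RPL5B. L5 is the protein of the large ribosomal subunit that binds the 5S rRNA. AT5G40130 had 21.5 and 26.4 FPKM in dividing tissue, against 6.12 and 6.63 FPKM in non-dividing tissue (log2 fold change 1.75 ± 0.13, limma adjusted p = 0.000495). RPL5B had 278 and 347 FPKM in dividing tissue, against 91.7 and 94.8 FPKM in non-dividing tissue (1.72 ± 0.13, limma adjusted p = 0.000557). The pseudogene and RPL5B were aligned over 183 bases with 8 mismatches, and 77.2% of the stretches of the pseudogene occurred once in the genome. A window of 90 bases of both loci (TAIR10.1, RefSeq annotation) is shown because of the long run they share, with differing bases in capitals. The first is from the pseudogene (chr5:16053947-16054036, minus strand) and the second from an exon of RPL5B (chr5:15904821-15904910, plus strand).
AT5G40130: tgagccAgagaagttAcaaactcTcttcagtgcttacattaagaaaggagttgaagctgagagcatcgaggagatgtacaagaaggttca
RPL5B: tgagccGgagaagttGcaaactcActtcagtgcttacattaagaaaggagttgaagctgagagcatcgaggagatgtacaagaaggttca
Only 3 of the 90 positions differ, and the longest identical run of the alignment is 109 bases, so that short reads from such a run cannot be told apart. The part of reads of RPL5B in the FPKM of the pseudogene was not tested.

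AT2G24110 was the other ribosomal protein pseudogene called higher, a copy related to the S11 protein of the small subunit. It had 2.24 and 3.28 FPKM in dividing tissue and was listed at 0 in both non-dividing libraries (limma adjusted p = 0.000883). It thus entered the test through dividing tissue alone. All of its stretches occurred once in the genome. Its nearest relative AT4G30800 had 4.27 and 4.31 FPKM in dividing tissue, against 0.916 and 0.544 FPKM in non-dividing tissue (log2 fold change 1.62 ± 0.15, limma adjusted p = 0.000813). The gene beside it, AT2G24120, had 8.47 and 12.3 FPKM in dividing tissue, against 1.60 and 1.37 FPKM in non-dividing tissue, and was also called higher. Of the 6 pseudogenes whose annotation names a ribosomal protein, 3 were tested, 2 were called higher and none lower. These counts stand beside 51.7 and 18.2% of all annotations. After rescaling the counts were the same, beside 31.0 and 30.7% of all. The group was formed by the words of the annotation, so related pseudogenes annotated in other words are outside it.

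AT3G08885, a ferritin pseudogene, differed in direction from the gene it resembles. FER1 encodes a plastid ferritin that stores iron. AT3G08885 had 2.95 and 2.74 FPKM in dividing tissue and was listed at 0 in both non-dividing libraries (limma adjusted p = 0.000390). It thus entered the test through dividing tissue alone. FER1 had 50.3 and 66.2 FPKM in dividing tissue, against 108 and 101 FPKM in non-dividing tissue (log2 fold change -0.85 ± 0.15, limma adjusted p = 0.00600). The alignment of both covers 309 columns with 72.5% identity, and its first 60 columns are shown because they show how far the copies have diverged, with differing and unpaired bases in capitals. The pseudogene (chr3:2706068-2706127, minus strand, TAIR10.1) is given first and FER1 (chr5:229378-229436, minus strand) second.
AT3G08885: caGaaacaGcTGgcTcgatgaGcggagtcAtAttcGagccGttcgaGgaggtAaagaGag
FER1: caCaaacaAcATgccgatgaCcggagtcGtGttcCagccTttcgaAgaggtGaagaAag
The longest identical run of this pair is 11 bases, and all stretches of the pseudogene occurred once in the genome. The neighbour of the pseudogene, AT3G08890, had 10.2 and 11.3 FPKM in dividing tissue, against 6.01 and 6.33 FPKM in non-dividing tissue, and was called higher.

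AOP2, AT4G03060 on chromosome 4 (1351980 to 1353854, TAIR9), is a glucosinolate gene. The AOP2 enzyme, a 2-oxoglutarate-dependent dioxygenase, makes alkenyl glucosinolates in other accessions, and Columbia carries a null allele. AOP2 had 19.4 and 14.0 FPKM in dividing tissue, against 6.54 and 3.57 FPKM in non-dividing tissue (log2 fold change 1.58 ± 0.28, limma adjusted p = 0.00618). The groups did not overlap, and without either dividing library the adjusted p was 0.0591 or 0.0896. AOP3, the neighbouring gene of the same family, was listed at 0 in all 4 libraries. The alignment of both loci (74.1% identity over 1056 columns) holds 192 mismatches and 81 gap columns. A gap of 5 columns in AOP2 was picked from these, and the window around it is shown, with differing and unpaired bases in capitals. AOP2 is at chr4:1353111-1353195, minus strand, and AOP3 at chr4:1344859-1344948, plus strand (TAIR10.1).
AOP2: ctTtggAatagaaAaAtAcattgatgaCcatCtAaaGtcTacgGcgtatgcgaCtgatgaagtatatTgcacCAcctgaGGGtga
AOP3: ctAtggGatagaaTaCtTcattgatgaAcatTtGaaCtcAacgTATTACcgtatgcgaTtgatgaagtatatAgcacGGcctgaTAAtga
The window holds 85 bases of AOP2 and 90 of AOP3, so the difference in length is not a multiple of 3. Any relation of this gap to the null allele of Columbia was not tested.

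Further pseudogenes with a large difference upward had relatives or annotation of various kinds. BGLU6 and BGLU5, neighbouring genes of the glycoside hydrolase family 1, are pseudogenes in the table and protein-coding genes in TAIR10.1. BGLU6 had 11.1 and 10.3 FPKM in dividing tissue, against 2.43 and 3.38 FPKM in non-dividing tissue (log2 fold change 1.59 ± 0.15, limma adjusted p = 0.000865). BGLU5 had 17.5 and 18.6 FPKM in dividing tissue, against 10.6 and 13.1 FPKM in non-dividing tissue, and its log2 fold change was 0.57 ± 0.12 (limma adjusted p = 0.0115), or 0.19 after rescaling (limma adjusted p = 0.220). Without either dividing library the adjusted p of BGLU5 was 0.0919 or 0.117. BGLU4, which the annotation gives as the closest protein of both, was listed at 0 in all 4 libraries. AT2G16367, annotated as a defensin-like pseudogene, had 33.7 and 25.2 FPKM in dividing tissue, against 11.6 and 8.55 FPKM in non-dividing tissue (1.46 ± 0.20, limma adjusted p = 0.00259). The gene beside AT2G16367, AT2G16365, had 43.4 and 38.1 FPKM in dividing tissue, against 21.5 and 22.6 FPKM in non-dividing tissue, and was also called higher. AT3G18145, a copy related to CARA, the small subunit of carbamoyl phosphate synthetase, had 1.66 and 2.43 FPKM in dividing tissue, against 0 and 0.206 FPKM in non-dividing tissue (1.46 ± 0.19, limma adjusted p = 0.00225). CARA was also called higher, with 51.7 and 62.2 FPKM in dividing tissue, against 26.6 and 23.9 FPKM in non-dividing tissue. In TAIR10.1 the microRNA gene MIR3440b lies within AT3G18145 on the same strand. The neighbour of AT3G18145, LST8-1, had 56.1 and 54.9 FPKM in dividing tissue, against 43.4 and 45.9 FPKM in non-dividing tissue. LST8-1 was called higher, but not after rescaling (limma adjusted p = 0.347). AT5G31909, a fragment of an RNA polymerase gene, had 2.30 and 2.25 FPKM in dividing tissue and was listed at 0 in non-dividing tissue (limma adjusted p = 0.000502), and 22.4% of its stretches occurred once. It also entered the test through dividing tissue alone.

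AT5G14840 and 2 similar pseudogenes, AT3G06433 and AT2G13580, were all called higher. AT5G14840 had 27.1 and 33.2 FPKM in dividing tissue, against 7.90 and 8.20 FPKM in non-dividing tissue (log2 fold change 1.78 ± 0.12, limma adjusted p = 0.000447). The other 2 were named after their values were seen. AT3G06433 had 4.50 and 5.30 FPKM in dividing tissue, against 2.29 and 3.05 FPKM in non-dividing tissue, with a log2 fold change of 0.69 (limma adjusted p = 0.0116) that was not called after rescaling (limma adjusted p = 0.0818). AT2G13580 had 1.86 and 2.34 FPKM in dividing tissue, against 0.506 and 0.507 FPKM in non-dividing tissue (1.04, limma adjusted p = 0.00241). Only 42.9, 54.8 and 30.4% of the stretches of AT5G14840, AT3G06433 and AT2G13580 occurred once in the genome. The stretches shared among these 3 were not counted apart from other repeats, and the 3 values cannot be taken as independent. A window of AT5G14840 (chr5:4798969-4799058, minus strand, TAIR10.1) and AT3G06433 (chr3:1961350-1961436, plus strand) shows how alike these 2 are, with unpaired bases in capitals.
AT5G14840: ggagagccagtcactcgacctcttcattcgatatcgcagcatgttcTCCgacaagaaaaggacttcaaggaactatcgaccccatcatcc
AT3G06433: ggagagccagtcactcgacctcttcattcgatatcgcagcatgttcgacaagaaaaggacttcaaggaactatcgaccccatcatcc
Over the whole alignment of 828 columns the identity was 96.9%, with an identical run of 146 bases. In TAIR10.1, AT5G14840 and AT3G06433 each overlap a misc_RNA locus on the same strand.

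Of the pseudogenes lower in dividing tissue, AT1G69140, AT4G04409 and AT1G31900 were listed at 0 in both dividing libraries. They entered the test through non-dividing tissue alone. AT1G69140, a copy of a gene for a hypothetical protein on chromosome 1 (25991520 to 25991872, TAIR9), had 11.7 and 11.9 FPKM in non-dividing tissue (limma adjusted p = 0.000133). All of its stretches occurred once, no annotation of the table lay within 1 kb, and its value differed little between the lines. AT1G31900, a fragment of an oxidoreductase gene, had 3.31 and 2.40 FPKM in non-dividing tissue (limma adjusted p = 0.000684). It overlaps AT1G31910, a GHMP kinase gene with 59.2 and 62.5 FPKM in dividing tissue, against 55.8 and 56.3 FPKM in non-dividing tissue, which was not called. The library kit is not described as strand-specific, so reads of overlapping annotations cannot be told apart.

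The 2 histone pseudogenes, AT4G04408 and AT4G04409, stand head to head on chromosome 4 with 19 bases between them (2184059 to 2184400 on the minus strand and 2184420 to 2184717 on the plus strand, the same in TAIR9 and TAIR10.1). The annotation names HTA4 and HTA11 as their sources. HTA11 encodes H2A.Z, the histone variant found next to transcription start sites. AT4G04409 was listed at 0 in both dividing libraries, against 10.8 and 4.00 FPKM in non-dividing tissue (limma adjusted p = 0.00274). AT4G04408 had 1.52 and 0 FPKM in dividing tissue, against 10.4 and 3.67 FPKM in non-dividing tissue (log2 fold change -2.20 ± 0.60, limma adjusted p = 0.0243). For both, replicate 1 of non-dividing tissue was the highest library, and the tissues did not overlap. Without either dividing library the adjusted p was 0.0583 or 0.0597 for AT4G04409, with the log2 fold change at -2.94 as in the fit of all libraries, and 0.0642 or 0.175 for AT4G04408, and leaving out replicate 1 of non-dividing tissue gave 0.0949 for AT4G04408. HTA11 went the other way, with 47.3 and 47.4 FPKM in dividing tissue, against 8.29 and 9.99 FPKM in non-dividing tissue (2.26 ± 0.11, limma adjusted p = 0.000258). HTA4 had 10.8 and 10.2 FPKM in dividing tissue, against 11.6 and 10.9 FPKM in non-dividing tissue, and was not called (-0.09 ± 0.09, limma adjusted p = 0.391). AT4G04408 and HTA4 are 94.7% identical over 282 bases, with 15 mismatches, as the windows of 90 bases from AT4G04408 (chr4:2184191-2184280, minus strand) and HTA4 (chr4:7885458-7885547, plus strand) show. Differing bases are in capitals.
AT4G04408: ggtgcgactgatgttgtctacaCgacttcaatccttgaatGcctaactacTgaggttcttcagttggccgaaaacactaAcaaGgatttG
HTA4: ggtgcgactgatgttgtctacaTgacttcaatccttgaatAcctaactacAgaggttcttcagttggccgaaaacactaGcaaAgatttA
The second pseudogene is further away: AT4G04409 (chr4:2184480-2184569, plus strand) and AT4G04408 (chr4:2184195-2184284, minus strand) differ at 25 of 90 positions of the following window.
AT4G04409: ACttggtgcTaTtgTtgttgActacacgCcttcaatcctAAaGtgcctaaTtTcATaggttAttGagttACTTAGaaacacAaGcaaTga
AT4G04408: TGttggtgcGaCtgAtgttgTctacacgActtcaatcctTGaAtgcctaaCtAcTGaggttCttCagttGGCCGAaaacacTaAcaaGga
The TAIR10.1 annotation, unlike the deposited table, also holds a microRNA gene across both, MIR841b (2184135 to 2184629 on the plus strand). Its mature products are shown with the seed, bases 2 to 8, in capitals: miR841b-5p (chr4:2184325-2184345) lies antisense within AT4G04408, and miR841b-3p (chr4:2184420-2184440) forms the first 21 bases of AT4G04409.
miR841b-5p: tACGAGCCactggaaactgaa
miR841b-3p: cAATTTCTagtgggtcgtatt
Where they overlap, reads of the 2 pseudogenes and of a MIR841b precursor cannot be told apart here. AT4G04409 lies on the same strand as MIR841b, so strand would separate only AT4G04408 from it. The reverse complement of miR841b-5p matched spliced HTA4 and HTA11 with 4 mismatches each in 21 bases, which is a description of letters only. MIR841a, which overlaps HTA4, is in the table and had 5.68 and 6.86 FPKM in dividing tissue, against 7.69 and 6.09 FPKM in non-dividing tissue, with no call.

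**Figure D3:**
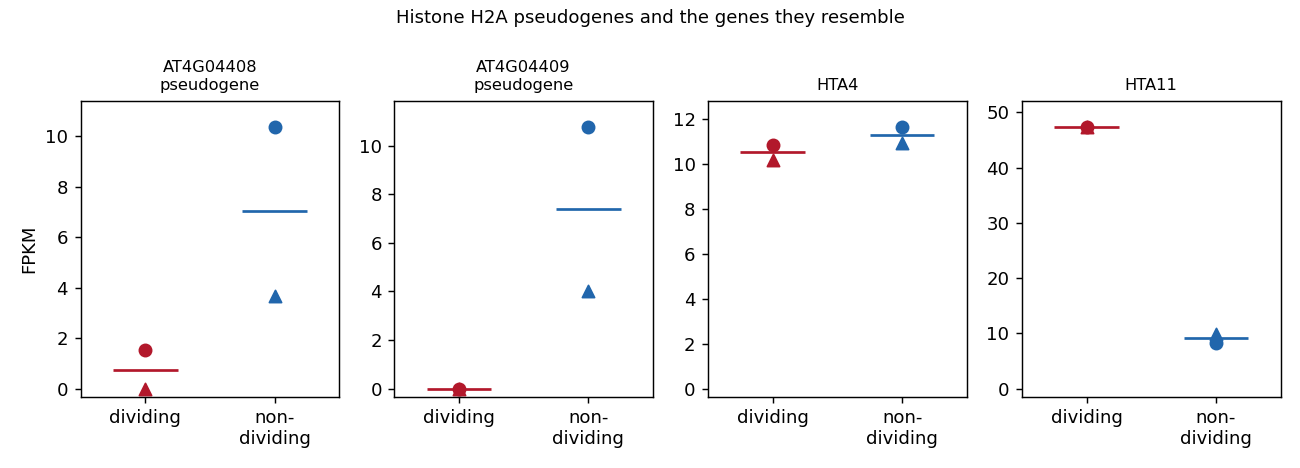
FPKM (y axis, a scale for each panel) of the histone H2A pseudogenes AT4G04408 and AT4G04409 and of HTA4 and HTA11. Circles are replicate 1, triangles replicate 2 and lines the mean of each tissue. The pseudogenes are at 1.52 FPKM or less in dividing tissue and at 3.67 FPKM or more in non-dividing tissue, HTA4 is between 10.2 and 11.6 FPKM in all libraries, and HTA11 is higher in dividing tissue.

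The remaining pseudogenes with a large difference downward included copies of a cytochrome P450, a receptor-like kinase and a glycine-rich protein gene. CYP71B18, a cytochrome P450 pseudogene, had 9.92 and 6.98 FPKM in dividing tissue, against 22.2 and 22.8 FPKM in non-dividing tissue (log2 fold change -1.33 ± 0.17, limma adjusted p = 0.00197). Its nearest relative CYP71B16 was listed at 0 in all 4 libraries. AT4G23215, a relic of a cysteine-rich receptor-like kinase, had 3.89 and 5.18 FPKM in dividing tissue, against 8.10 and 11.4 FPKM in non-dividing tissue (-0.95 ± 0.20, limma adjusted p = 0.0101). CRK14, which is both its nearest relative and its neighbour, had 3.86 and 5.28 FPKM in dividing tissue, against 14.0 and 16.9 FPKM in non-dividing tissue, and was also called lower. Without either dividing library the adjusted p of AT4G23215 was 0.0636 or 0.110. AT3G17110, a glycine-rich protein pseudogene, had 0.853 and 1.94 FPKM in dividing tissue, against 8.56 and 6.09 FPKM in non-dividing tissue (-1.82 ± 0.27, limma adjusted p = 0.00339). AT3G48650, annotated as a relic of a putative pectinesterase gene, had 1.19 and 2.36 FPKM in dividing tissue, against 4.40 and 8.28 FPKM in non-dividing tissue (-1.38 ± 0.33, limma adjusted p = 0.0162), and its adjusted p was between 0.0533 and 0.146 without either dividing library or without replicate 2 of non-dividing tissue. Among the 10 most abundant pseudogenes, 2 were not called: AT3G24927, with 27.0 and 25.2 FPKM in dividing tissue, against 28.3 and 34.8 FPKM in non-dividing tissue, and ARI6, of the ARIADNE family of RING ubiquitin ligases, with 22.4 and 20.5 FPKM in dividing tissue, against 17.1 and 20.8 FPKM in non-dividing tissue. After rescaling AT3G24927 was lower (-0.65, limma adjusted p = 0.00854).

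Some pseudogenes had RNA in one tissue and were listed at 0 in the other. Above 0 in both dividing libraries and at 0 in both non-dividing ones were 17 of the 182 (9.34%), beside 4.71% of all annotations above 0 in any library. The reverse held for 5 (2.75%), beside 0.890% of all. An FPKM of 0 can be a failed estimate, and the pseudogenes concerned were low, so these are counts and not tests. Leaving out 1 library gave between 20 and 28 of the first kind, namely 26 when replicate 1 of non-dividing tissue was left out and 28 when replicate 2 of dividing tissue was. It gave between 7 and 10 of the second kind, with 8 without replicate 1 of dividing tissue, 9 without replicate 2 of dividing tissue and 10 without replicate 2 of non-dividing tissue. At more than 1 FPKM in both libraries of the tissue with RNA there were 5 and 3. The 5 highest of the first pattern were AT3G08885, AT2G24110, AT5G31909, the F-box pseudogene AT3G12981 (2.05 and 1.84 FPKM in dividing tissue) and AT3G30214 (1.82 and 1.68 FPKM). The 5 of the second pattern were AT1G69140, AT4G04409, AT1G31900, AT3G18777, a RING protein pseudogene with 1.02 and 0.945 FPKM in non-dividing tissue, and AT2G07716, with 0.325 and 0.285 FPKM in non-dividing tissue. A further 22 pseudogenes were above 0 in 1 library only, 11 of them in replicate 1 of dividing tissue, and none of these exceeded 1.87 FPKM. AT1G47440, the only one whose annotation names the S locus, was at 0.233 and 0.259 FPKM in dividing tissue, against 0.289 and 0 FPKM in non-dividing tissue.

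Pseudogenes were set beside the gene they resemble most among those that are protein coding in TAIR10.1. No lower limit was set on the share of the pseudogene that was aligned. It was 8.61% for AT2G13420 with CHR5, 19.4% for AT1G31900 with AT1G55980 and 100% for AT1G64560 with DIM1A. A relative can thus share only a short stretch and need not be the source gene. A blastn search of the spliced sequences gave a nuclear protein-coding relative in the table for 145 of the 182, and in 60 pairs both members were tested. In 43 of these the pseudogene was called. The relative was called in the same direction in 22, in the opposite direction in 6 and not at all in 15. One of the 22 is BGLU6 with BGLU5, itself a pseudogene in the table, and without it there were 21. Of the 32 pseudogenes called higher, 20 had a relative called higher, which compares with 51.7% of all annotations, and of the 11 called lower, 2 had a relative called lower, beside 18.2% of all. After rescaling 32 of the 60 pseudogenes were called, with the relative in the same direction in 15, opposite in 7 and not called in 10. Of the 18 then higher, 7 had a relative called higher, beside 31.0% of all, and of the 14 then lower, 8 had a relative called lower, beside 30.7% of all, so that these shares depended on the scale. The Spearman correlation of the log2 fold changes over the 60 pairs was 0.37, and 0.46 over the 46 pairs in which at least 90% of the stretches of the pseudogene occurred once. The pairs share libraries, and genes are not independent replicates. Among the 80 tested pseudogenes with a relative in the table, FPKM was below that of the relative in all 4 libraries for 47 and above it in all 4 for 26, and 13 had a relative listed at 0 in every library. The 6 pairs that went opposite ways, named after their values were seen apart from AT3G08885, were AT3G08885 with FER1, AT2G38980 with CAT4, AT2G46730 with TBL14, AT1G28620 with AT1G28660, AT2G14090 with AT3G59250 and AT1G31355 with AT1G57860. In the last the pseudogene was lower and the gene higher, and in the others the pseudogene was higher. After rescaling AT2G38980 (log2 fold change 0.06, limma adjusted p = 0.708) and AT2G46730 (0.30, limma adjusted p = 0.0912) were not called, and the other 4 pairs still went opposite ways. AT2G14090 had 4.78 and 5.23 FPKM in dividing tissue, against 1.67 and 1.48 FPKM in non-dividing tissue, whereas AT3G59250 had 0.483 and 0.502 FPKM in dividing tissue, against 1.86 and 2.15 FPKM in non-dividing tissue.

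**Figure D4:**
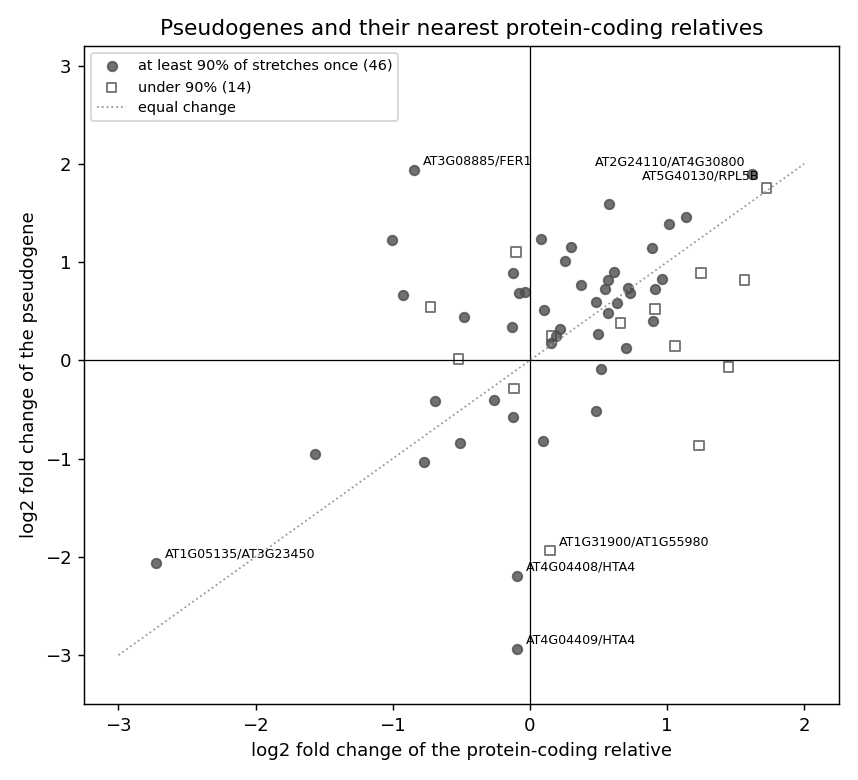
log2 fold change of dividing over non-dividing tissue for the nearest protein-coding relative (x axis) and the pseudogene (y axis) in the 60 pairs tested. Filled circles are the 46 pseudogenes with at least 90% of their 36-base stretches once in the genome, open squares the other 14, and the dotted line marks equal change. AT5G40130 lies on the line with RPL5B, the H2A pseudogenes lie below the line with HTA4, and AT3G08885 and FER1 differ in sign.

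Other groups by annotation text were small, and their calls stand beside 51.7% higher and 18.2% lower over all annotations. After rescaling these shares were 31.0 and 30.7%. Of 7 disease resistance or leucine-rich repeat pseudogenes, 5 were tested, with 1 called higher and 1 lower, or 0 and 2 after rescaling. Of 9 pseudogenes of transferases, 7 were tested, with 4 called higher and 3 lower, or 2 and 3 after rescaling. The 4 cytochrome P450 pseudogenes, of which 2 were tested, gave 1 call in each direction. Kinase pseudogenes numbered 4, with 2 tested and 1 called lower. Pentatricopeptide pseudogenes numbered 5, with 3 tested and 2 called higher. The calls of these last groups were the same in number after rescaling. RNR2B, a pseudogene of the small subunit of ribonucleotide reductase, which makes deoxynucleotides for DNA synthesis, was named after its values were seen. It had 1.49 and 1.73 FPKM in dividing tissue, against 0.525 and 0.641 FPKM in non-dividing tissue (log2 fold change 0.72 ± 0.13, limma adjusted p = 0.00652). Its relative TSO2 had 23.9 and 20.9 FPKM in dividing tissue, against 11.2 and 11.6 FPKM in non-dividing tissue, and was called higher.

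A block of 17 members are copies of mitochondrial DNA on chromosome 2. They lie between 3244557 and 3471873 (TAIR9), a span of 227 kb, and between 83.7 and 100% of their 36-base stretches also occur in the mitochondrial genome, with at most 16.3% once in the whole genome. The median of that share over the other pseudogenes was 98.1%. Insertions of organelle DNA into nuclear chromosomes are well known in plants. Reads of mitochondrial transcripts and of these copies cannot be told apart. None had a mean above 1.99 FPKM. Summed over the 17, FPKM was 10.4 and 8.04 in dividing tissue, against 11.5 and 14.1 in non-dividing tissue, while the mitochondrial annotations of the table summed to 171 and 205 FPKM in dividing tissue, against 168 and 136 FPKM in non-dividing tissue. Of the 4 that were tested, AT2G07717, from subunit 4 of NADH dehydrogenase, was lower, with 0.657 and 0.617 FPKM in dividing tissue, against 1.46 and 2.06 FPKM in non-dividing tissue (log2 fold change -0.75 ± 0.16, limma adjusted p = 0.0101), and none was higher. Over all annotations tested, 18.2% were called lower and 51.7% higher. After rescaling 3 of the 4 were lower, with AT2G07808 and AT2G07709 added, beside 30.7% of all annotations. AT2G07811 lies in the same interval and is among the 10 largest differences downward, with 0.246 and 0.342 FPKM in dividing tissue, against 1.80 and 2.18 FPKM in non-dividing tissue (-1.21 ± 0.14, limma adjusted p = 0.00156). Its TAIR10.1 entry is at another place than the deposited one, so its stretches were not counted.

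In the share above 0 and in the median FPKM, pseudogenes lay between protein-coding and transposable element genes. Of 924 pseudogenes 19.7% were above 0 in at least 1 library, compared with 73.9% of 27301 protein-coding genes and 8.19% of 3882 transposable element genes. The median of the mean FPKM over those above 0 was 1.24 for pseudogenes, 9.17 for protein-coding genes and 0.222 for transposable element genes. Transcribed pseudogenes had a median length of 1270 bases, against 617 bases for pseudogenes listed at 0, and over all annotations the medians were 2163 bases above 0 and 1080 bases at 0. Of the 182, 23 (12.6%) overlapped another annotation of the deposited table, compared with 5.84% of all pseudogenes. Over all annotations it was 15.8% of those above 0 and 11.5% of the whole table, in the same direction for both measures. In TAIR10.1, overlaps with loci that the table lacks, such as MIR841b, were found for 20 of the 182. They were on the same strand in 9 and on the opposite strand in 11, and the share over all annotations is not given here. On chromosomes 1 to 5 there were 48, 50, 39, 18 and 27 transcribed pseudogenes, or between 14.9 and 22.9% of the pseudogenes of each. Of 40 called pseudogenes with a tested neighbour within 1 kb, 24 (60%) had a neighbour called in the same direction, compared with 48.4% for 7279 such annotations of all types. In 7 (17.5%) it was called in the opposite direction, beside 21.3% of all. Overlapping annotations count as neighbours here. Among pseudogenes that overlap no other annotation, the direction was the same in 19 of 32 (59.4%) and opposite in 7 (21.9%). Neighbouring pseudogenes such as BGLU5 and BGLU6 each count, and the scale is as deposited.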

How the data were processed

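Poly-A RNA of 4 libraries was sequenced by Illumina technology. Reads were aligned by the authors to TAIR9 (TopHat 1.2.0, Bowtie 0.12.7, SAMtools 0.1.13). The authors deposited an FPKM value from Cufflinks 0.9.3 for each annotation and library. The number of reads behind a single value could not be recovered from FPKM, so no counting interval is given, and library totals were not used here. The FPKM were tested with limma 3.58.1 (R 4.3.3, trend) on log2(FPKM + 1), leaving out annotations with a mean under 1, with Benjamini-Hochberg adjustment over all 17967. The code was tested on simulated data. Replicate numbers pair the samples because each number is 1 transgenic line, and deviations of same-numbered libraries correlated at 0.257 over all annotations. The fit with the line as a block was an alternative. Uniqueness is the share of 36-base stretches of a locus found once in TAIR10.1, and relatives were found with BLAST+ 2.17.0 (largest expected value 1e-10). Deposited coordinates are TAIR9. Sequences and notes are from the RefSeq annotation of TAIR10.1, which had an entry for 180 members, 179 of them overlapping the deposited span. Named were the 10 pseudogenes with the largest change in each direction among those called and changed the same way in both lines, the 10 of highest mean, the 5 highest in each direction listed at 0 in the other tissue, and those of the S locus, of histone genes and of source genes with an opposite call. The members and lists were chosen with earlier results of these data known. Alternatives varied the pseudocount, filter, scaling, libraries and ambiguous members. Those without members mostly in the mitochondrial genome, with at least 90% unique stretches and without the 3 highest were added after seeing the data. Python 3.11.15 with numpy 2.4.6, pandas 2.3.3 and matplotlib 3.10.9 was used.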

Additional observations from a re-analysis of the deposited data

Results flagged for a closer look

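ARI6 (AT1G63760) differed between the tissues in one line and hardly in the other, with opposite signs. Its log2 fold change of dividing over non-dividing tissue was 0.37 between the HTR5-GFP libraries, whereas it was -0.015 between the HTR13-GFP libraries, with 1 library of each tissue in each line, and the difference between the lines was not tested. ARI6 overlaps AT1G63770, and its own difference was not called in either direction. Signs were opposite in the 2 lines for 7 of the 100 tested pseudogenes, none of them called.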

How the results depend on the processing

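Of the 25 named pseudogenes with a test, 14 had 12 alternative fits and 11, which are under a mean of 5 FPKM, had 11. On their side of the threshold in each of their fits were 15. The count called higher (43) was 16 with a mean FPKM of at least 5, 25 after rescaling, 31 after rescaling with the block, 19 after quantile normalization and between 26 and 43 on leaving out 1 library. The count called lower (24) was 9 with a mean of at least 5, 32 after rescaling, 34 after rescaling with the block, 36 after quantile normalization and between 13 and 23 on leaving out 1 library. With the line as a replicate block the counts were 47 and 28, and the block changed no call of a named pseudogene. The median log2 fold change (0.33) was 0.20 with any mean above 0, -0.0087 after rescaling with or without the block, -0.14 after quantile normalization and between 0.26 and 0.37 on leaving out 1 library. The ratio of summed FPKM (0.95) was 0.72 after rescaling, 1.26 without the 5 highest pseudogenes, 1.23 without the 3 highest, 0.89 over members with at least 90% of their stretches once and between 0.93 and 0.98 on leaving out 1 library. The counts listed at 0 in one tissue, 17 and 5, were 5 and 3 above an FPKM of 1, 10 and 3 over members with at least 90% of their stretches once, and between 20 and 28 and between 7 and 10 on leaving out 1 library. ARI6 changed sign, to -0.22 after rescaling with or without the block and -0.10 after quantile normalization, without a call. AT4G04408 lost its call with a pseudocount of 0.1 (limma adjusted p = 0.0591). The cause of these changes was not tested. Leaving out 1 library leaves 1 in a tissue, which is assumed to vary like the other tissue. The counting error of low values and of listings at 0 was not estimated from FPKM.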
